A study of Mus musculus with 9 samples.

Results

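The 10 genes described here decide whether a stressed cell lives or dies. Mcl1, Bcl2, Bcl2l1, Bcl2l11, Bax, Bbc3 and Pmaip1 belong to the BCL2 family, Birc2 and Birc3 to the inhibitor of apoptosis (IAP) family, and Cflar encodes c-FLIP, the inhibitor of death receptor signaling. They were found by their gene symbols, and all 10 were present among the 24061 symbols of the count table. mRNA was profiled by RNA-seq in bone-marrow-derived macrophages (BMDMs) of female C57BL/6J mice aged 8 to 10 weeks. Marrow cells were differentiated for 7 days in medium with L-cell conditioned medium and kept without serum for 1 day. On day 8, Veh cultures received DMSO alone, LPS cultures received DMSO and then 10 ng/mL of the Toll-like receptor 4 agonist lipopolysaccharide for 2 hr, and T0+LPS cultures received the LXR agonist T0901317 (T0) at 500 nM for 3 hr before the same LPS stimulus. Each group had 3 libraries. The sources used here do not say when the Veh cultures were collected, so LPS and added time in culture cannot be told apart. In bulk RNA, fewer cells of a kind and less RNA per cell cannot be told apart either. Library totals ran from 13299044 to 16467983 counts.

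Proteins of the BCL2 family control the outer membrane of mitochondria. MCL1, BCL2 and BCL-XL (the product of Bcl2l1) hold the pore-forming protein BAX in check, and the BH3-only proteins BIM (Bcl2l11), PUMA (Bbc3) and NOXA (Pmaip1) antagonize these guardians. cIAP1 (Birc2) and cIAP2 (Birc3) are ubiquitin ligases of TNF receptor complexes, and c-FLIP keeps caspase-8 from starting the death program at those complexes. In macrophages, Toll-like receptor signaling activates NF-κB, and several survival genes of these families are known NF-κB targets.

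Genes known to answer each agent were read first. Il1b, an inflammatory cytokine, averaged 1.81 ± 1.22 (SD, n = 3) CPM (counts per 1000000 counts of the library, with libraries scaled by TMM, the trimmed mean of M-values) in Veh and 1135 ± 136 CPM in LPS. Abca1, a cholesterol efflux transporter induced by LXR, averaged 1828 ± 159 CPM in LPS and 5087 ± 184 CPM in T0+LPS. Of the macrophage markers, 7 of 8 were in the table (Adgre1 was not analysed here), and their summed level lay between 23696 and 29707 CPM in the 9 libraries, with Lyz2 as the most abundant. Itgam was at 0, on 3 countable bases. Neutrophil markers summed to 79.3 to 83.7 CPM in Veh, 86.5 to 99.6 CPM in LPS and 85.1 to 98.3 CPM in T0+LPS, with Mmp8 as the most abundant, and their part in the members' changes was not tested. S100a8 and Mmp8 were called higher in LPS, Mmp8 not with library totals, while 7 of the 9 genes of that list in the table averaged under 1 CPM, Retnlg was at 0, S100a9 was at 0 on 3 countable bases, and Ly6g was not analysed here. The summed levels of the dendritic cell, T cell, B cell, mast cell and basophil, and fibroblast marker lists were at most 3.1, 3.42, 2.44, 0.0788 and 0.661 CPM, led by Xcr1, Cd4, Cd79b, Cpa3 and Col1a2. The dendritic cell sum was 0.236 to 0.529 CPM in Veh and 2.52 to 2.96 CPM in LPS, the T cell sum 2.64 to 3.42 and 1.69 to 2.46 CPM, and the B cell sum 1.89 to 2.44 and 0.996 to 1.59 CPM, and the part of these small sums in the members' changes was not tested. The defining genes Flt3, Siglech, Cd3e, Pax5, Mcpt8, Fcer1a, Pdgfra and Dcn had at most 1 read over the 9 libraries, while Cd8a and Kit had 31 and 16 countable bases, too few to read. The 4 markers of cycling cells, led by Mki67, summed to 104 to 139.6 CPM in Veh, 396 to 456 CPM in LPS and 321 to 421 CPM in T0+LPS. Most of that difference was Mki67, at 51 ± 7.54 CPM in Veh and 341 ± 32.9 CPM in LPS (SD, n = 3). With TMM, Ccnb1 and Cdk1 were not called and Top2a was called higher. With library totals Top2a was not called and 1 gene of this list was called lower. The part of these genes in the members' changes was not tested.

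What a count means differed among the members. The table has 1 row for each RefSeq transcript, and bases that 2 or more rows share gave no counts, so a gene with several transcripts was read only on the bases of a single row. Mcl1, Bax, Bbc3, Pmaip1, Birc2 and Birc3 each had 1 row and were read over their whole length. Bcl2 was read on 5752 bases of its 2 rows, with 1609 of its 1616 reads on the last exon of the longer transcript. Bcl2l1 was read on 568 bases and gave 27 reads over the 9 libraries, too few for a test.

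**Figure D1:**
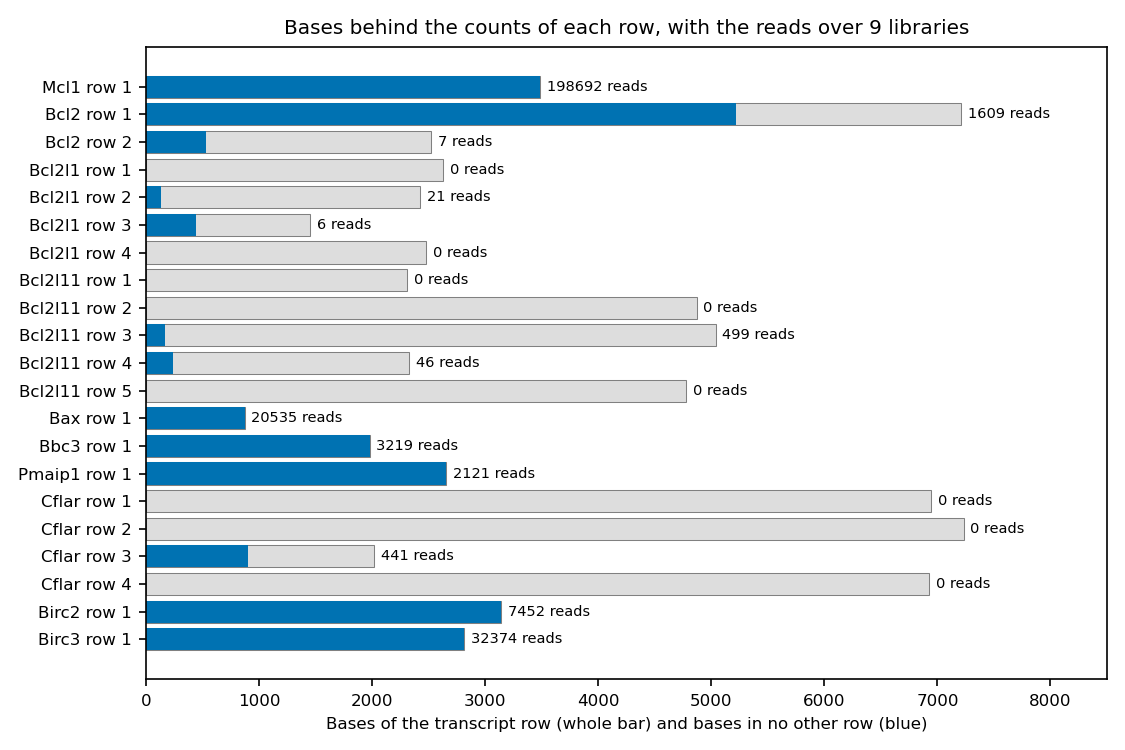
Length in bases of each transcript row of the 10 members (whole bar) and the bases that lie in no other row (blue), with the reads over the 9 libraries beside each bar. Rows without blue hold 0 reads, and Bcl2l1, Bcl2l11 and Cflar were read on short stretches.

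Bcl2l11 and Cflar were therefore measured as isoforms, and the stretches that carried their reads are shown for that reason. Of the 545 Bcl2l11 reads, 499 fell on 168 bases at chr2:128128757-128128924 (plus strand, mm10), a coding part of a long exon that the table's other Bcl2l11 transcripts splice out. These bases are particular to the longest BIM isoform (sequence from GENCODE M21, GRCm38).
Bcl2l11 stretch: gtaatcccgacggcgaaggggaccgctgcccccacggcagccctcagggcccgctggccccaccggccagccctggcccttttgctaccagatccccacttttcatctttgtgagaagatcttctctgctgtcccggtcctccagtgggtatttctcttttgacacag

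All 441 Cflar reads fell on 901 bases at chr1:58732327-58733227, the end of the alternative last exon of a short Cflar transcript with 5 exons. Its protein product ends soon after the death effector domains and lacks the caspase-like part of the long form. The coding end of this exon, chr1:58732253-58732362 on the plus strand (GENCODE M21, GRCm38), is printed with the 36 bases in no other row in capitals.
Cflar short last exon: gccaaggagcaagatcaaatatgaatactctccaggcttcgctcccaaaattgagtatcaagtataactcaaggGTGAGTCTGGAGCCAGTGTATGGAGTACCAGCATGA

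The same 901 bases lie within an intron of the longer Cflar transcripts, so reads from unspliced RNA cannot be told apart from the short form. The long form of c-FLIP was not measurable here.

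LPS against Veh asks how these genes differ between cultures with and without the inflammatory stimulus. Of the 10 members, 9 had enough counts for the edgeR test. Birc3, Birc2, Bcl2l11, Cflar, Mcl1 and Bax (6 members) were called higher in LPS and Bbc3 (1 member) lower, at a Benjamini-Hochberg adjusted p under 0.05. Among all 9559 genes tested, 32.9% were called higher and 31.2% lower, so a call by itself was common. Bcl2 and Pmaip1 were not called. Cflar, 1 of the 6, passed the filter on low counts only through the LPS libraries, so it had to differ and its call supports nothing. LPS and Veh libraries were apart, with no overlap, for 8 of the 9 members tested and for 67.2% of all genes tested. T0 before LPS was then compared with LPS alone, which asks how the LXR agonist alters the stimulated state. In that comparison none of the 9 members tested was called by edgeR in either direction, beside 1.35% of 9348 genes called higher and 1.83% lower. DESeq2, which gave Bcl2l11 and Cflar no adjusted p, and limma-voom also called 0 members, and 1 member, Bbc3, had an unadjusted p under 0.05 by edgeR. The 126 genes higher and 171 lower behind these shares became 59 and 82 without LPS replicate 1, 78 and 94 without T0+LPS replicate 2, and 103 lower without T0+LPS replicate 1, and the count of members stayed at 0 in each case. Both comparisons share the LPS libraries.

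**Figure D2:**
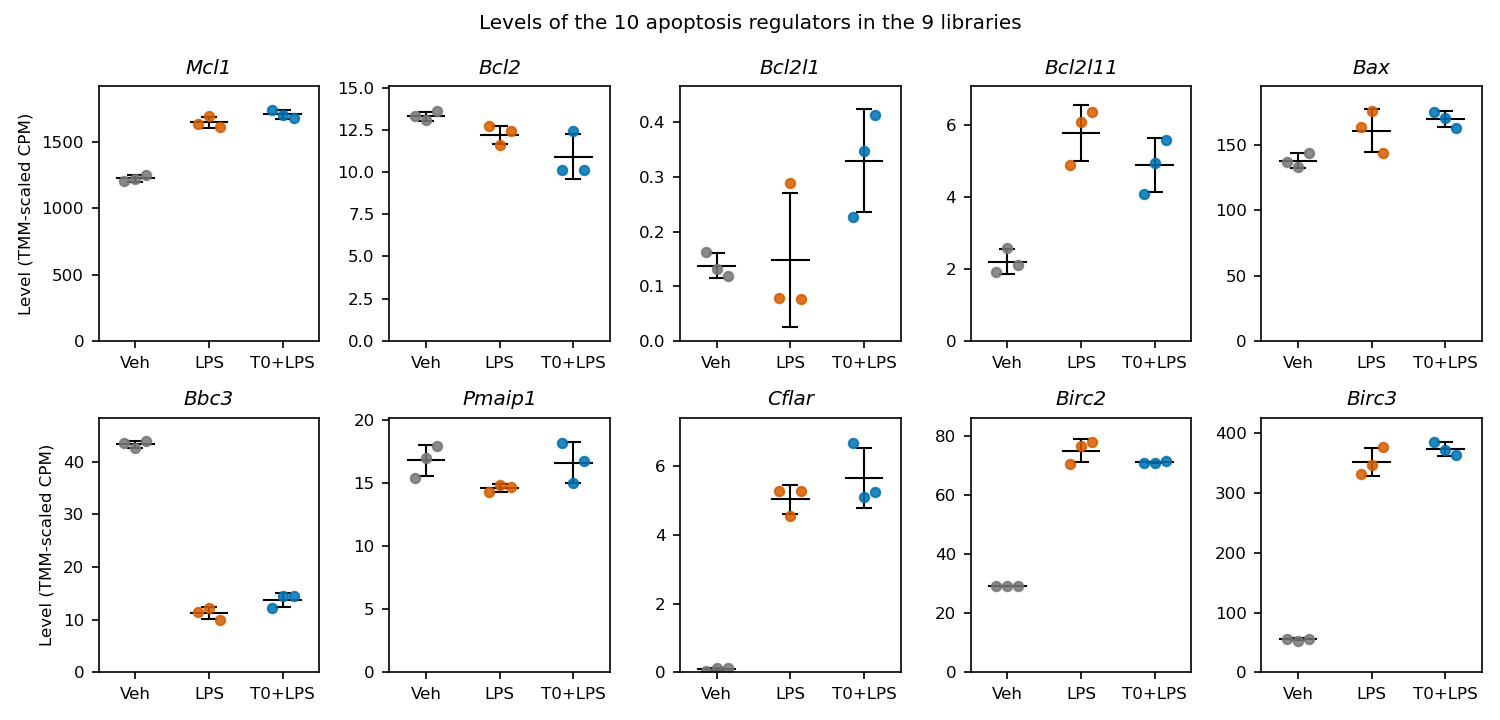
Level of each of the 10 members in TMM-scaled CPM (linear axes from 0) in the 9 libraries, with 1 point per library, a line at the group mean and bars of 1 SD (n = 3). Birc2, Birc3, Bcl2l11 and Cflar stand higher and Bbc3 lower in every LPS and T0+LPS library than in every Veh library.

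Mcl1, the short-lived guardian on which many myeloid cells depend, was the most abundant member per kilobase of countable bases. Its level was 1201, 1219 and 1249.8 CPM in Veh, 1636, 1692 and 1609 CPM in LPS, and 1741, 1699.9 and 1676 CPM in T0+LPS. Every stimulated library lay above every Veh library, and the LPS and T0+LPS libraries overlapped. Mcl1 rose 1.37-fold with LPS (95% interval 1.29 to 1.45, edgeR adjusted p = 3.3e-08). With T0 added the fold was 1.03 (0.971 to 1.1, adjusted p = 0.71).

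Bcl2, the founding guardian of the family, was low on that scale. It stood at 13.3, 13.1 and 13.6 CPM in Veh, 12.7, 11.6 and 12.4 CPM in LPS, and 10.1, 12.4 and 10.1 CPM in T0+LPS. The LPS libraries all lay below the Veh libraries, but the difference did not pass the test with TMM scaling (log2 fold change −0.10 ± 0.09 SE, edgeR adjusted p = 0.36). Scaled by library totals, Bcl2 was called lower (log2 fold change −0.38, adjusted p = 0.0013, against 0.29 to 0.57 over the other alternatives). The T0+LPS and LPS libraries overlapped, with a log2 fold change of −0.17 ± 0.11 SE (adjusted p = 0.56). For Bcl2l1, which encodes BCL-XL, the counts were 3, 2 and 2 in Veh, 1, 4 and 1 in LPS, and 3, 5 and 6 in T0+LPS, and its level was not tested.

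BAX forms the pore of the mitochondrial outer membrane. Bax was measured at 137, 133 and 144 CPM in Veh, 164, 176 and 144 CPM in LPS, and 175, 171 and 163 CPM in T0+LPS. LPS replicate 3 was level with the highest Veh library, so these groups overlapped. The fitted rise with LPS was 1.19-fold (1.09 to 1.3, edgeR adjusted p = 0.002), and with scaling by library totals alone it was absent (log2 fold change −0.03, adjusted p = 0.65, against 1.6e-05 to 0.014 over the other alternatives). T0 before LPS gave a fold of 1.05 (0.954 to 1.15, adjusted p = 0.72), and leaving out LPS replicate 3 turned the log2 fold change to −0.01.

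Among the BH3-only genes, Bbc3 fell and Bcl2l11 rose with LPS. Bbc3, which encodes PUMA, was at 43.5, 42.6 and 43.9 CPM in Veh, 11.5, 12.2 and 10 CPM in LPS, and 12.3, 14.6 and 14.5 CPM in T0+LPS. All Veh libraries were high and all stimulated libraries low, with no overlap. Bbc3 fell by 1.92 on the log2 scale with LPS (SE 0.08, edgeR adjusted p = 2.2e-12), to a fitted 0.265 of its Veh level (0.236 to 0.298). Its T0+LPS libraries lay just above the LPS libraries, with a fold of 1.22 (1.04 to 1.44) and an adjusted p of 0.24 that did not pass. Pmaip1 also did not overlap between LPS and T0+LPS, and these were 2 of the 9 members tested, beside 19.1% of all genes tested in that comparison.

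Bcl2l11, the BIM gene, went the other way from Bbc3. Its counts on the long isoform and an alternative start came to 1.9, 2.58 and 2.12 CPM in Veh, 4.89, 6.07 and 6.36 CPM in LPS, and 4.09, 4.95 and 5.58 CPM in T0+LPS. Every stimulated library was above every Veh library, and LPS overlapped T0+LPS. The rise with LPS was 2.7-fold (2.06 to 3.52, edgeR adjusted p = 3.6e-06), from 35 to 39 counts per library in Veh and 62 to 84 in LPS. The row of the long isoform by itself rose by a log2 fold change of 1.57 (adjusted p = 2.3e-06). T0 gave a fold of 0.843 (0.659 to 1.08, adjusted p = 0.58), an interval that leaves room for a change in either direction.

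Pmaip1, the NOXA gene, differed little between the groups. It was at 15.4, 17 and 17.9 CPM in Veh, 14.3, 14.8 and 14.7 CPM in LPS, and 18.2, 15 and 16.7 CPM in T0+LPS. The LPS libraries were the lowest of the 9, without overlap with either other group. Neither difference passed the edgeR test with TMM scaling, with log2 fold changes of −0.17 ± 0.09 SE for LPS against Veh (adjusted p = 0.10) and 0.18 ± 0.10 SE for T0+LPS against LPS (adjusted p = 0.45). Scaled by library totals, Pmaip1 was called lower in LPS than in Veh (log2 fold change −0.45, adjusted p = 2.8e-04, against 0.053 to 0.28 over the other alternatives).

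Windows before the start sites of Bcl2l11 and Bbc3 are shown because these BH3-only genes moved apart while both held a 7-base FOXO pattern. FOXO factors are known activators of both genes. The patterns were chosen with the results known and are a description of letters, not of binding. RefSeq windows (GRCm38.p6), from 250 bases before to 50 after each start, matched 9 of the 10 members, Pmaip1 not among them, with 15 windows in all. GTAAACA, read on both strands, was in 2 of these windows and in 3.65% of all 32851 windows. The window at the start of the counted Bbc3 row held 0 matches. The pattern is in capitals below. The Bcl2l11 window, chr2:128125788-128126037 on the plus strand, ends at the start of its main transcripts, and the Bbc3 window, chr7:16310011-16310260 on the plus strand, lies before an alternative start in the initial intron of the counted Bbc3 row.
Bcl2l11: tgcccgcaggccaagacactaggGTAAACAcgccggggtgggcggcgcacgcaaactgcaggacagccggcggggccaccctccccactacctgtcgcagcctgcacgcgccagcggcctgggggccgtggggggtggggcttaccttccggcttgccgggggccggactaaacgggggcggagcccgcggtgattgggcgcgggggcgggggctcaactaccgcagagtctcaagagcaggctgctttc
Bbc3: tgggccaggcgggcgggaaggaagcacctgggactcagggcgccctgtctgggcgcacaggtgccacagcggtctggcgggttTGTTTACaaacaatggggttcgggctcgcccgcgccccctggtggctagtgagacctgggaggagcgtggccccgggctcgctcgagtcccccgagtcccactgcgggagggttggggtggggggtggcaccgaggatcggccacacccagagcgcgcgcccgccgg

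Foxo3, which encodes one of these factors, averaged 115 ± 6.95 CPM in Veh and 12.3 ± 0.348 CPM in LPS (SD, n = 3). It fell by 3.20 on the log2 scale (edgeR adjusted p = 5.7e-16), and its part in the changes of Bbc3 and Bcl2l11 was not tested.

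Cflar, read on the short form, was close to absent in Veh. The raw counts were 1, 2 and 2 in Veh, 67, 63 and 69 in LPS, and 88, 73 and 76 in T0+LPS. Veh was at or below the floor of 3 counts in every library and every stimulated library was far above it. The ratio of LPS to Veh was 50.8, with an exact 95% counting interval of 21.4 to 158 that covers counting error only. The LPS and T0+LPS levels overlapped at 4.55 to 5.29 and 5.09 to 6.66 CPM (fold 1.12, 0.882 to 1.42, adjusted p = 0.75).

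Birc3, encoding cIAP2, had the largest increase of the members read over their whole length. It was at 56.3, 53.1 and 56 CPM in Veh, 331, 347 and 376 CPM in LPS, and 385, 371 and 363 CPM in T0+LPS. All stimulated libraries lay far above all Veh libraries, and LPS overlapped T0+LPS. The rise with LPS was 6.5-fold (5.99 to 7.04, edgeR adjusted p = 1.9e-16). With T0 the log2 fold change was 0.08 (−0.03 to 0.19, adjusted p = 0.56).

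Birc2, the neighboring gene that encodes cIAP1, rose less. Its level was 29.2 CPM in each of the 3 Veh libraries, 70.8, 76.7 and 78.2 CPM in LPS, and 71.1, 71 and 71.5 CPM in T0+LPS. The Veh libraries were low with almost no spread, and the stimulated groups overlapped. The rise with LPS was 2.62-fold (2.41 to 2.86, edgeR adjusted p = 2.2e-12), and T0 gave a fold of 0.943 (0.869 to 1.02, adjusted p = 0.57).

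The windows before Birc3 and Birc2 are shown because these adjacent genes on chromosome 9 rose together by different amounts. The NF-κB pattern GGGNNNNNCC, read on both strands, is in capitals. It was in 11 of the 15 member windows, from 8 of the 9 members matched, and in 50.8% of all windows, so it is common in windows of this length. The Birc3 window holds 1 match, 57 bases before the start, and neither of the 2 Birc2 windows holds a match. The windows of Bbc3, which was called lower with LPS, hold 8, 3 and 4 matches. The part of this pattern in the members' changes was not tested. The LXR pattern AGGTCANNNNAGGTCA was in 0 of the 15 member windows and in 5 of all windows (0.0152%). Both windows are on the minus strand, chr9:7873171-7873420 for Birc3 and chr9:7837058-7837307 for Birc2, whose annotated start lies outside the counted row.
Birc3: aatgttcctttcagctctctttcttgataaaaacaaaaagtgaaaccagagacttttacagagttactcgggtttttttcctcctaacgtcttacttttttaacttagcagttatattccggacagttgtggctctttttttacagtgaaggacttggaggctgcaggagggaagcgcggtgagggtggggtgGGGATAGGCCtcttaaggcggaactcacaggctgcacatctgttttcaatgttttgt
Birc2: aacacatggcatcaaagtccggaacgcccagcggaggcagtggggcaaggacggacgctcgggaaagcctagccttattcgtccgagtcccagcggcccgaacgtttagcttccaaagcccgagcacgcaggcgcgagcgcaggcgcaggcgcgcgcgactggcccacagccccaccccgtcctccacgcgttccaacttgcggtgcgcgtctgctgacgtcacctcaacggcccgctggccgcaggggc

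**Figure D3:**
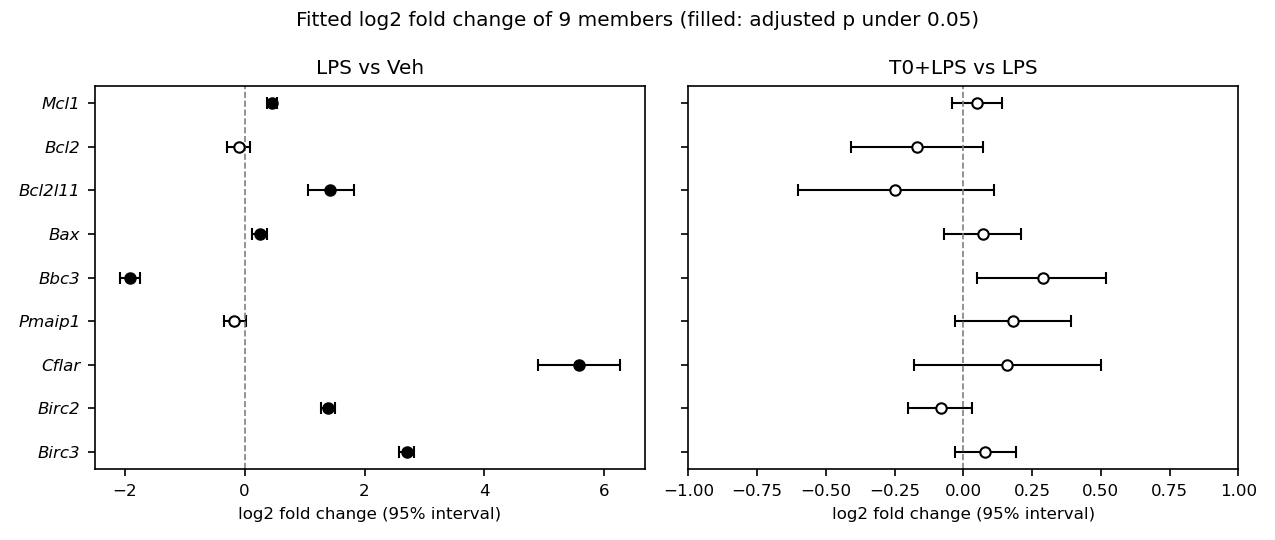
Fitted log2 fold change of the 9 members tested, with 95% intervals, for LPS vs Veh and, on a narrower axis, T0+LPS vs LPS (filled points, adjusted p under 0.05). With LPS, 7 points are filled, from −1.92 for Bbc3 to 5.58 for Cflar, whose fitted value depends on counts near the floor, and Bax crosses 0 with scaling by library totals. With T0, 0 points are filled and the Bbc3 interval alone lies clear of 0.

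Levels can be compared between genes only per length, here as mean CPM per kilobase of countable bases. In Veh the order of the 9 members tested was Mcl1 at 351, Bax at 159, Bbc3 at 21.9, Birc3 at 19.6, Birc2 at 9.31, Pmaip1 at 6.32, Bcl2l11 at 5.42, Bcl2 at 2.32 and Cflar at 0.113. Of neighbors in this order, Pmaip1 and Bcl2l11 overlapped between libraries. In LPS the order became Mcl1 at 472, Bax at 186, Birc3 at 125, Birc2 at 24, Bcl2l11 at 14.2, Bbc3 at 5.69, Cflar at 5.59, Pmaip1 at 5.5 and Bcl2 at 2.13, where Bbc3, Cflar and Pmaip1 overlapped. Bbc3 thus stood above Birc3 in Veh and far below it in LPS. The order in T0+LPS was that of LPS, from Mcl1 at 489 to Bcl2 at 1.89, with the same overlaps among Bbc3 at 6.97, Cflar at 6.28 and Pmaip1 at 6.27. Bcl2l1, on its 27 reads, came to 0.242 in Veh, above Cflar, and to 0.261 in LPS and 0.58 in T0+LPS, below Bcl2. For Bcl2l1, Bcl2l11 and Cflar these are not levels of the gene. The Bcl2l1 reads fell on 126 bases of 1 transcript row (21 reads) and 442 bases of another (6 reads). The remaining Bcl2l1 rows had 0 countable bases. Cflar was read on the short form alone. The Bcl2l11 value pools 168 bases of the long isoform (499 reads) with 238 bases of an alternative start (46 reads). The long isoform by itself stood higher per kilobase than this pooled value, so the place of Bcl2l11 in the order is not that of the isoform.

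Ratios of 2 members within a library do not depend on the scaling between libraries. The ratio of Birc3 to Birc2 counts was 1.92, 1.82 and 1.91 in Veh, 4.67, 4.53 and 4.81 in LPS, and 5.41, 5.22 and 5.08 in T0+LPS. The 3 groups did not overlap, and the ratio was 2.48-fold higher in LPS than in Veh and 1.12-fold higher in T0+LPS than in LPS. Each difference had a 2-sided exact permutation p of 0.1, the smallest that 3 against 3 libraries allow (adjusted p = 0.2 over the 8 ratio tests). The ratio of Pmaip1 to Bbc3 went from 0.356, 0.399 and 0.407 in Veh to 1.24, 1.21 and 1.46 in LPS, and to 1.49, 1.03 and 1.15 in T0+LPS. Pmaip1 had the fewer counts of this pair in every Veh library and the more counts in every stimulated library. The change from Veh to LPS was 3.36-fold (exact permutation p = 0.1, adjusted p = 0.2), and LPS and T0+LPS overlapped (p = 0.6, adjusted p = 0.686). The ratio of Mcl1 to Bcl2l11 was 624, 467 and 581 in Veh, 332, 277 and 251 in LPS, and 422, 341 and 298 in T0+LPS. It was lower in every stimulated library than in every Veh library, by 0.96 on the log2 scale for LPS (exact permutation p = 0.1, adjusted p = 0.2), and it overlapped between LPS and T0+LPS (p = 0.2, adjusted p = 0.267). The ratio of Bcl2l1 to Bcl2 rested on 27 Bcl2l1 reads. Its log2 value differed by 0.10 between LPS and Veh (exact permutation p = 1) and by 1.30 between T0+LPS and LPS (p = 0.2, adjusted p = 0.267), and the former turned to −0.54 with the most counted row of each gene and to −0.43 without LPS replicate 2.

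**Figure D4:**
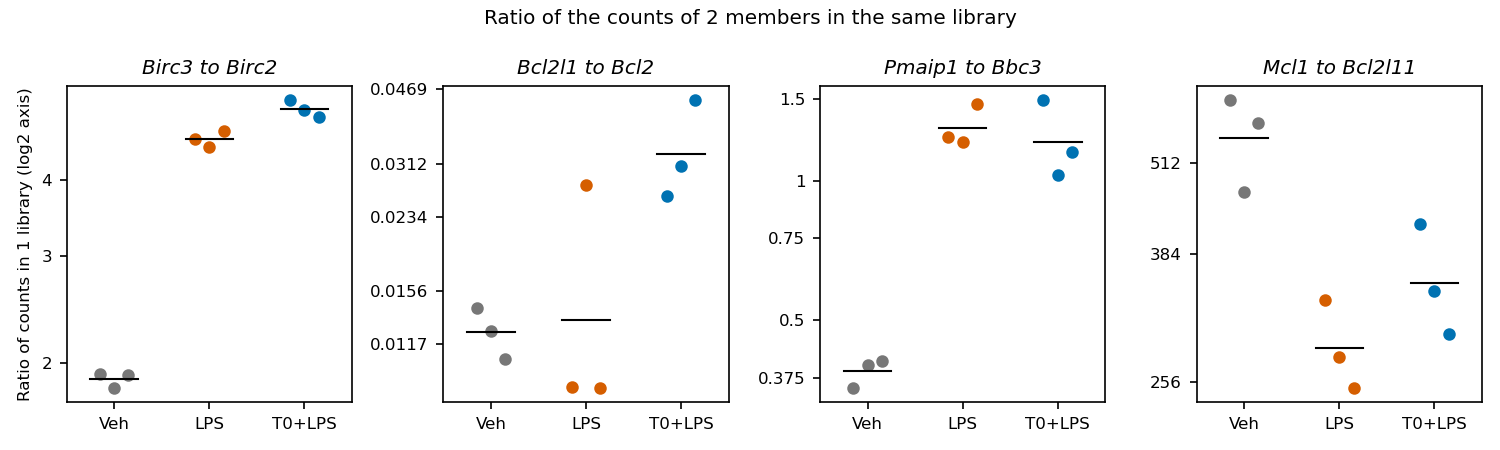
Ratio of the counts of 2 members in the same library, with 0.5 added to each count, on log2 axes, with 1 point per library and a line at the group mean of the log2 ratio. Birc3 to Birc2 separates the 3 groups, Pmaip1 to Bbc3 is under 0.5 in Veh and over 1 in the stimulated libraries, and Bcl2l1 to Bcl2 rests on at most 6 Bcl2l1 counts per library.

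Scaling mattered for the small changes. The TMM factor was 1.12 or more for each Veh library and 0.937 to 0.955 for the LPS libraries. Scaled by library totals alone, all genes tested for LPS against Veh had a median log2 fold change of −0.28. On that scale 23.8% of the calls were higher ones, compared with 51.4% with TMM. Bcl2 and Pmaip1 were then called lower and Bax lost its call, as given with each gene. Birc3, Birc2, Bcl2l11, Mcl1 and Bbc3 held their direction and call under each of the 3 scalings.

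The patterns of 7 members over the 9 libraries were compared with those of 7299 genes by Pearson r, as a description of 9 points that share 3 groups. The most similar were Icosl (r = 1.000) and Swap70 (0.999) for Birc3, Mycl and Tlr6 (both 0.999) for Birc2, Ccdc126 (0.998) and Coro7 (0.997) for Bbc3, and Rab20 (0.997) and Gdf15 (0.996) for Mcl1. For Bax they were Cfl1 (0.984) and Arpc1b (0.981), for Bcl2 Sorl1 (0.946) and Tsen15 (0.927), and for Pmaip1 2700062C07Rik (0.924) and Zcchc7 (0.912).

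The rest of the BCL2 family moved in both directions. Of 19 listed genes, 12 were tested, 6 were called higher and 4 lower with LPS (6 and 6 with library totals), and their median log2 fold change was 0.23, beside a median of 0.00 over all genes. For this list and those below, the shares over all 9559 genes tested were 32.9% higher and 31.2% lower. With library totals, 1694 of all genes tested were called higher and 5411 lower. The A1 guardians rose most, Bcl2a1d from 2.83 ± 0.717 to 144 ± 8.32 CPM and Bcl2a1b from 36.2 ± 0.878 to 633 ± 56.2 CPM (SD, n = 3, adjusted p = 2.4e-17 and 1.1e-17). For Bcl2a1a the ratio of counts was 371 (144 to 1363, counting interval), from 4 reads over the Veh libraries. Bcl2a1a and Bcl2a1c, counted among the 6, passed the filter only through the LPS libraries. These genes are near-identical copies, so the split of reads among them is uncertain. Bmf, a BH3-only gene, was at 32.1 ± 0.883 CPM in Veh and 1.3 ± 0.694 CPM in LPS, the direction of Bbc3 and not of Bcl2l11, and passed the filter only through the Veh libraries. Bid and Bnip3 fell by 0.49 and 0.27 on the log2 scale.

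Among the other IAP genes and their antagonists, 8 of 10 were tested, 2 were called higher and 3 lower, and the median was −0.26. The genes higher were Xiap and Birc6, the latter with overlapping groups and named after its value was seen (log2 fold change 0.16, adjusted p = 0.032), and the count fell to 1 without Veh replicate 2, Veh replicate 3 or LPS replicate 3. Xiap, the direct caspase inhibitor, was at 193 ± 2.55 CPM in Veh and 236 ± 13.8 CPM in LPS, a rise whose call was lost with scaling by library totals (log2 fold change 0.04), where 0 genes of this list were called higher and 6 lower by edgeR. Birc2 and Birc3 were called higher on either scale. Naip5, Naip6 and Htra2 fell by 0.52, 0.29 and 0.22 on the log2 scale, and Naip6 lost its call without Veh replicate 3 (adjusted p = 0.064) or LPS replicate 2 (adjusted p = 0.061).

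The death receptor list, the setting of Cflar, Birc2 and Birc3, held more calls higher than lower. Of 22 genes, 18 were tested, 11 were called higher and 1 lower (8 and 6 with library totals), with a median of 0.33. Tnf, Traf3 and Tnfaip3, called higher, passed the filter only through the LPS libraries, since fewer than 3 Veh libraries reached its level. Traf1, a partner of the cIAPs, rose from 11.5 ± 0.616 to 203 ± 13.5 CPM and the death receptor gene Fas from 4.23 ± 0.926 to 47.9 ± 1.05 CPM (adjusted p = 1.5e-17 and 2.3e-14). The ubiquitin-editing enzyme gene Tnfaip3, read on 431 bases, was at 0.459 ± 0.152 CPM in Veh and 25.1 ± 0.183 CPM in LPS. Ripk1 fell by 0.31 on the log2 scale. Of 13 caspase and apoptosome genes, 11 were tested, 4 were called higher and 5 lower (4 and 7 with library totals), with a median of −0.37. Casp9, called lower, passed the filter only through the Veh libraries. Casp4, an inflammatory caspase gene, rose from 27.3 ± 2.6 to 193 ± 2.16 CPM, and Cycs rose by a log2 fold change of 0.88. Casp2 fell from 63 ± 1.72 to 19.4 ± 1.53 CPM, and Dffb and Casp6 fell by 0.42 and 0.33 on the log2 scale, with Dffb not called by DESeq2 (adjusted p = 0.052) or without Veh replicate 3, LPS replicate 1 or LPS replicate 2. Of 12 upstream regulators, 9 were tested, 5 were called higher and 2 lower (3 and 3 with library totals), with a median of 0.39. Besides Foxo3, the NF-κB subunit genes Nfkb1 and Rela rose by log2 fold changes of 2.92 and 1.78 and Cdkn1a by 3.57.

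With T0 before LPS, edgeR called 0 of 12 genes tested of the BCL2 family list, 0 of 7 of the IAP list, 0 of 18 of the death receptor list and 1 of 9 upstream regulators, which was lower. Over all genes tested, 1.35% were called higher and 1.83% lower. In the death receptor list 1 gene was called lower without a filter on low counts or with the replicate number as a block, and 1 was called higher without LPS replicate 3. The medians of the 5 apoptosis lists, with that of caspases included, lay between −0.05 and 0.09, beside 0.00 over all genes. Cdkn1a, the p21 gene, was at 16.6, 15 and 19.2 CPM in LPS and 6.21, 10.5 and 7.17 CPM in T0+LPS. The groups did not overlap, and Cdkn1a fell by 1.08 on the log2 scale (SE 0.16, edgeR adjusted p = 1.0e-03), read on 206 bases. In the same comparison Abca1, Abcg1 and Srebf1, targets of LXR, rose 2.77-, 4.26- and 2.47-fold, and the inflammatory genes Il1b and Ptgs2 fell by 0.48 and 0.68 (log2). The macrophage gene Mertk rose by a log2 fold change of 1.06 with T0.

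**Figure D5:**
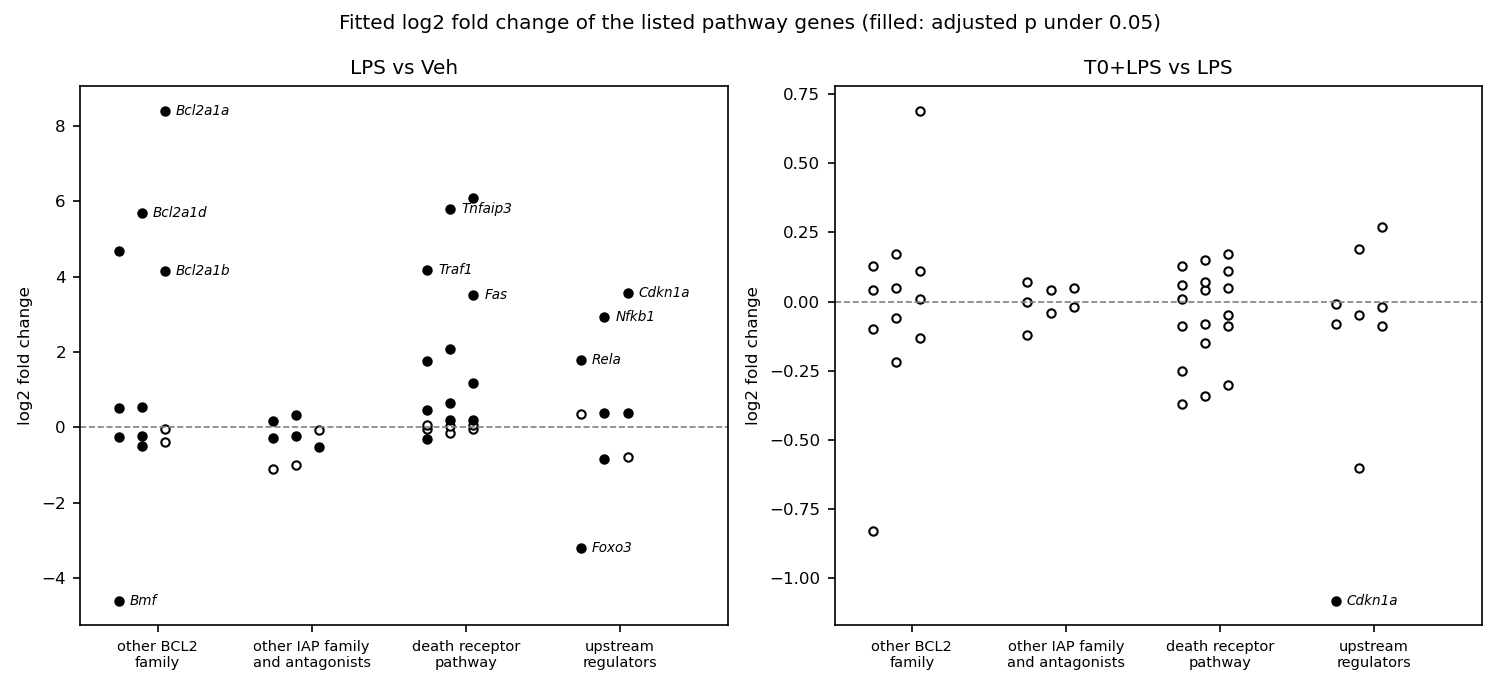
Fitted log2 fold change of the tested genes of 4 lists (other BCL2 family, other IAP family and antagonists, death receptor pathway, upstream regulators) without the members, for LPS vs Veh and, on a narrower axis, T0+LPS vs LPS (1 point per gene, filled for adjusted p under 0.05). With LPS the points run from −4.60 for Bmf to 8.41 for Bcl2a1a, a fitted value near the floor in Veh, and small changes depend on the scaling, and with T0 Cdkn1a alone of these lists is filled.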

How the data were processed

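RNA was measured in 9 libraries of BMDMs, 3 each for Veh, LPS and T0+LPS, grouped by their titles. Poly(A) RNA with RIN above 8 was sequenced. According to their methods and processing notes, the authors trimmed reads with cutadapt 1.14, aligned them to mm10 with HISAT2 2.1.0 and counted them on RefSeq transcripts with featureCounts 1.5.0. The deposited values used here are raw read counts per transcript, without normalization. The authors' own comparison tables, which hold fold changes and adjusted p-values or gene names, were not used.

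Counts of rows with 1 symbol were summed. edgeR 4.0.16 in R 4.3.3 (quasi-likelihood test, TMM, filterByExpr with minimum counts of 10 and 15, Benjamini-Hochberg adjustment over all genes tested) was fitted to the 6 libraries of each comparison, with calls at an adjusted p under 0.05. CPM values were scaled by TMM over all 9 libraries. Fold intervals come from the moderated standard error. Ratios of members were compared by exact permutation of libraries. Alternatives were other scalings and filters, DESeq2 1.42.0, limma-voom 3.58.1, a fit to all 9 libraries, transcript rows in place of symbols, the replicate number as a block and leaving out each library. Countable bases were computed from the exon positions of all 32850 rows. Of these, 6696 had no base of their own and 0 of the 6696 had a read. The fit of T0+LPS against LPS was also run on simulated counts, and the outcome is not reported here.

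The members and the gene lists were chosen with earlier results of these data known. Named list genes were every gene called in T0+LPS against LPS and, for LPS against Veh, up to 3 called genes per direction with the largest changes, with separate groups and with 5 CPM or more on average. Some results of listed genes are not reported here. Patterns were compared on log2(CPM + 1) among genes with a mean of at least 5 CPM. The study counts separately differentiated cultures as replicates of BMDM experiments, and whether the cultures came from separate mice is not given in the sources used here, so p-values measure the spread between these libraries. Replicate pairs differed by more than sampling noise (chi-square per degree of freedom 2.63 to 6.67). Intervals of count ratios and floors cover counting error only.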

Additional observations from a re-analysis of the deposited data

How the results depend on the processing

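With library totals in place of TMM, LPS against Veh gave 1694 genes higher and 5411 lower, compared with 3148 and 2981, and 3 members lower instead of 1, since Bcl2 and Pmaip1 passed. On that scale the log2 fold changes of Bax, Csf1r and Mmp8 turned to −0.03, −0.03 and −0.08. These shifts follow the median shift of −0.28. Without a filter on low counts, T0+LPS against LPS gave 225 genes higher and 285 lower, compared with 126 and 171, over 14362 genes tested instead of 9348. The ratio of Bcl2l1 to Bcl2, LPS against Veh, turned from 0.10 to −0.54 with the most counted row of each gene, where the cause was not tested, and was −0.43 to 0.37 when each library was left out, with −0.43 without LPS replicate 2. The ratio of Pmaip1 to Bbc3, T0+LPS against LPS, was −0.26 to 0.01, and its sign turned without T0+LPS replicate 2.

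Leaving out each library in turn gave 59 to 167 genes higher and 82 to 191 lower for T0+LPS against LPS. The lowest counts, 59 and 82, came without LPS replicate 1. Without T0+LPS replicate 1 there were 103 lower, and without T0+LPS replicate 2 there were 78 higher and 94 lower. Fewer libraries entered those fits. For LPS against Veh the counts were 2922 to 3165 higher and 2745 to 3044 lower. In every such fit 6 members were higher and 1 lower with LPS, and 0 with T0. The log2 fold change of Bax for T0+LPS against LPS was −0.01 to 0.14, and its sign turned without LPS replicate 3.

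With the replicate number as a block, LPS against Veh gave 3053 genes higher and 2926 lower and the same member counts of 6 and 1, and no member's call changed. Libraries of the same number did not deviate together (correlations −0.05 to 0.06), so the numbers gave no sign of pairing. Of 270 member values under alternatives, 266 kept direction and side of the threshold, counting as not called Bcl2l11 and Cflar for T0+LPS against LPS, to which DESeq2 gave no adjusted p. Few reads limit Bcl2l1 (27 reads), Bcl2l11 (545) and Cflar (441), which were counted only on bases that lie in no other row.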
